A study of Mus musculus with 14 samples.

Results

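The genes of interleukin, interferon and TNF receptor chains were followed in CD11b+ macrophages of mouse brain tumours. Members were protein-coding mouse genes whose symbols are written as an interleukin number followed by r, those starting with Tnfrsf, Il6st, and the interferon receptor genes Ifnar1, Ifnar2, Ifngr1 and Ifngr2. There were 63 of them among 21887 protein-coding genes, 43 of interleukin and interferon receptors and 20 of the TNF receptor family. A further 3 genes fit the symbols: 2 receptor chains were not analysed here, and Il1rn was left out because it encodes a secreted antagonist of the interleukin-1 receptor. H3K27ac, the acetylation of lysine 27 on histone H3 that marks active promoters and enhancers, had been mapped by CUT&Tag, in which an antibody brings a DNA-cutting transposase to the mark. The H3K27ac groups were 4 libraries from mice given pracinostat, a histone deacetylase inhibitor, and 3 libraries from mice given the DMSO-containing vehicle alone. Both groups were NSG mice with T387 human glioblastoma cells grown in the brain, dosed by oral gavage from day 7 of tumour growth, on 4 occasions in each of 3 weeks. The pracinostat dose was 30 mg/kg in one place of the labels and 3 mg/kg in another. NSG mice lack mature T, B and natural killer cells and carry a null allele of Il2rg, so the host cells of both groups lack that receptor chain. As many libraries with non-specific IgG, 4 for pracinostat and 3 for DMSO, gave the background.

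Receptors set which cytokines a macrophage can sense. Interleukin and interferon receptors pair a ligand-binding chain with a signalling chain, and the pair activates JAK kinases and STAT transcription factors, while the interleukin-1 and interleukin-17 receptors work through adaptor proteins to NF-kB. TNF receptors either carry a death domain, which links them to caspases, or bind TRAF adaptors, and some members of the family are decoys that hold a ligand without passing the signal on. In tumours, interferon gamma is a classic activating signal for macrophages, and interleukin-10 and interleukin-6 family cytokines are linked to their suppressive states.

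Each library had a list of peak summits with a −log10 significance value, and a gene was given the highest value among summits within 1 kb of either of its ends. These values are not comparable between libraries. Genes were therefore ranked within a library, over the 13494 genes that 3 or more of the 7 H3K27ac libraries marked, and given as a percentile, where 100 is the highest. Summit lists were 229609 to 289017 long in pracinostat libraries and 53503 to 291042 long in DMSO libraries. DMSO replicate 2 stood apart with the shortest list, in which 34928 summits shared the lowest value, and its ranks correlated with those of the other libraries at r of 0.597 to 0.657, against 0.703 to 0.787 among the rest. In that library, genes without a summit tied at a percentile of 19.0 and genes at the lowest value at 47.3. The geometric mean of summits per library was 1.68 times as high with pracinostat as with DMSO (1.01 times without DMSO replicate 2), and the ratio did not pass a two-sided exact permutation test (p = 0.286, smallest possible 0.0286 over 35 splits). Of 10 macrophage marker genes all were ranked, and their mean percentile was 74.9 ± 6.73 in pracinostat libraries (SD, n = 4) and 65.4 ± 6.1 in DMSO libraries (n = 3). Of 12 lymphocyte markers, which host cells of this strain should lack, 7 were ranked, at 27.1 ± 6.75 in pracinostat libraries and 27.3 ± 2.76 in DMSO libraries, and Cd8a had no summit in any library. Of 12 neutrophil markers, which CD11b sorting can also collect, 10 were ranked and 8 of these were lower with pracinostat. The neutrophil list mean ran between 17.5 and 28.0 in pracinostat libraries and between 28.0 and 41.9 in DMSO libraries, and Ly6g had no summit in any library. Their part in the receptor results was not tested. Fewer cells of a type and less acetylation per cell cannot be told apart in sorted bulk samples.

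Most receptor genes carried H3K27ac at an end in most libraries. A summit lay at the ends of 40, 49, 43 and 46 of the 63 receptor genes in pracinostat replicates 1 to 4, and of 39, 27 and 46 in DMSO replicates 1 to 3. DMSO replicate 2 gave the low count, and the other DMSO libraries lay within the pracinostat range or 1 gene below it. As shares these were 70.6 ± 6.15% in pracinostat libraries (SD, n = 4) and 59.3 ± 15.3% in DMSO libraries (n = 3), or 67.5 ± 7.86% (n = 2) without DMSO replicate 2. All protein-coding genes gave 59.6 ± 1.45% in pracinostat libraries and 52.6 ± 12.1% in DMSO libraries, or 59.6 ± 2.85% without DMSO replicate 2. With each list limited to its 30000 highest summits, the receptor shares ran between 34.9 and 38.1% in pracinostat libraries and between 36.5 and 39.7% in DMSO libraries. The shares of all genes under that limit ran between 30.1 and 35.0% with pracinostat and between 31.1 and 33.8% with DMSO. With IgG, a summit lay at Tnfrsf4 in pracinostat replicate 2 and at Il13ra2 in DMSO replicate 3, and at no receptor gene in the other 5 IgG libraries.

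Over the 7 H3K27ac libraries, 25 receptor genes were marked in every library (39.7%, against 34.7% of all genes) and 7 in none (11.1%, against 23.1%). The 7 without a summit at either end were Il1r1, Il11ra2, Il23r, Il5ra, Il20ra, Il1rapl1 and Il13ra2. They encode the signalling receptor of interleukin-1, a second copy of the interleukin-11 receptor, the receptor chains of interleukin-23 and interleukin-5, a chain of the interleukin-20 receptor, a neuronal member of the interleukin-1 receptor family and a decoy for interleukin-13. Il11ra2 is nearly identical in sequence to Il11ra1, and how reads from such copies were placed is not given in the sources used here. Its neighbourhood, 10 kb on both sides included, held 0 summits in every library. No receptor gene had a summit in all 4 pracinostat and no DMSO library (background 0.329% of genes), and none in all 3 DMSO and no pracinostat library (background 0.0228%).

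**Figure D1:**
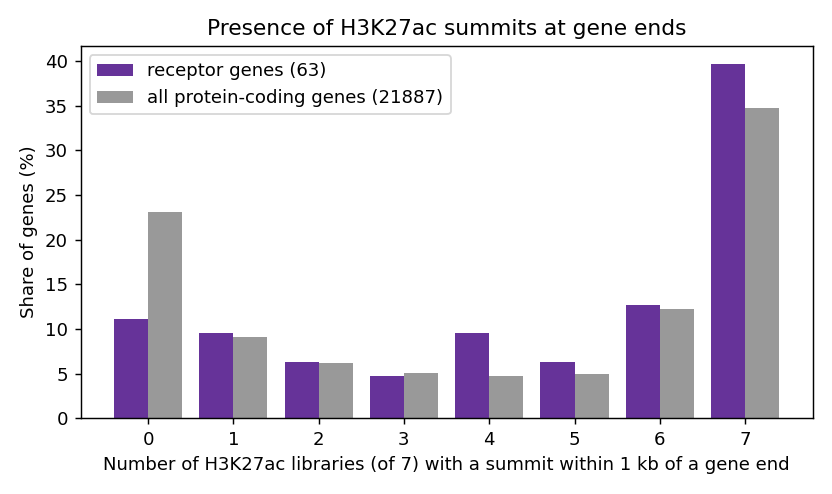
Share of genes (%) by the number of H3K27ac libraries, of 7, with a summit within 1 kb of a gene end, for the 63 receptor genes (purple) and all 21887 protein-coding genes (grey). Receptor genes were without a summit in 11.1% of cases, against 23.1% of all genes, and were marked in all 7 libraries in 39.7%, against 34.7%.

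The interferon gamma receptor had the most strongly ranked ends of the family. Ifngr1 (chr10:19591949-19610229, mm10), the ligand-binding chain, had percentiles of 99.1, 98.3, 99.97 and 99.8 in pracinostat replicates 1 to 4, against 98.8, 91.5 and 97.2 in DMSO replicates 1 to 3. No library had it below 91.5, and its groups overlapped. Its difference of 0.85 ± 0.47 normal-score units (SE), where 1 unit is 1 SD of all ranked genes, did not pass (limma adjusted p = 0.833, with an unadjusted value of 0.0773). It kept its direction in 19 of 19 alternatives, at 0.61 to 1.06 units on that scale. Its summits lay at −114 to 60 bp from the annotated start in every library. The interleukin-6 family signalling chain gene Il6st (chr13:112464070-112506860), Tnfrsf21 (chr17:43016555-43089188) and Il21r (chr7:125603252-125634397) likewise had their highest end summit at the 5′ end in all 7 libraries. A summit further inside the gene was higher in 3 pracinostat libraries and 1 DMSO library for Il21r. For Tnfrsf21 this held in 1 pracinostat library and 2 DMSO libraries, and for Il6st in none. Il23r (chr6:67422932-67491855) is shown with them as a receptor gene whose ends held no summit. The promoters below run over 300 bases, 250 before and 50 after the start, on the strand of the gene, from RefSeq on GRCm38.p6, the assembly that mm10 names. CpG dinucleotides, which are frequent in broadly active promoters, are in capitals. The stretches are chr10:19591699-19591998 (Ifngr1, plus strand), chr13:112463820-112464119 (Il6st, plus), chr17:43016305-43016604 (Tnfrsf21, plus), chr7:125603179-125603478 (Il21r, plus) and chr6:67491806-67492105 (Il23r, minus).
Ifngr1: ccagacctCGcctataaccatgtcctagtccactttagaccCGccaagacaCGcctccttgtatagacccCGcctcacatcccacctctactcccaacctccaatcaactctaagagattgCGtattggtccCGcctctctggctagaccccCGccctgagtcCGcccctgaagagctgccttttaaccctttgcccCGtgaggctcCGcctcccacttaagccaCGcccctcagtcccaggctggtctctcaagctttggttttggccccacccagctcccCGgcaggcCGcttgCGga
Il6st: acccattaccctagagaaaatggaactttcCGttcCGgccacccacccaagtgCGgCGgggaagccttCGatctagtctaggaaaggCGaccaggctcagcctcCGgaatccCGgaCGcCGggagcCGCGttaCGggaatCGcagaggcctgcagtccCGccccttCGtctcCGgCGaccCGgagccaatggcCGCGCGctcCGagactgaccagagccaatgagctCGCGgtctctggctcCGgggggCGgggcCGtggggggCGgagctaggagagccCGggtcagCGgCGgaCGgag
Tnfrsf21: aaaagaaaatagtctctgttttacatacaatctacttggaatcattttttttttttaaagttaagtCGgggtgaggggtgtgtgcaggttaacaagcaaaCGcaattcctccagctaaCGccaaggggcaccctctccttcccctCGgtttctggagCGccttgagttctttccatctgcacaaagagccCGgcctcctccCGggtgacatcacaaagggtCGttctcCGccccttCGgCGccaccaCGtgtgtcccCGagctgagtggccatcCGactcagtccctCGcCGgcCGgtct
Il21r: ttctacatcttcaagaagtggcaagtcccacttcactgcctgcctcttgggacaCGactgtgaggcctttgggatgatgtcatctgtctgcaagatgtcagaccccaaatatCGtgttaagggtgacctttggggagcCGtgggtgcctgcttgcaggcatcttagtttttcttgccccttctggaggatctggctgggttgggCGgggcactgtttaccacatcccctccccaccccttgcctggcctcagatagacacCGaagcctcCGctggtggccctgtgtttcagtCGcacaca
Il23r: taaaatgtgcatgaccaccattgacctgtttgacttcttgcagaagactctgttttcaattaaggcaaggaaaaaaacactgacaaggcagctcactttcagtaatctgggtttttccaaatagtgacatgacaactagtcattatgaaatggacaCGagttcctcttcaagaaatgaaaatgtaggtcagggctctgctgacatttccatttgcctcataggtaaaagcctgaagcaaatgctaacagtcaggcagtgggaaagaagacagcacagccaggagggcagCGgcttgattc

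The highest summit at the ends of the gene lay inside the printed stretch in 6 of 7 libraries for Ifngr1 and Il6st, in 5 for Tnfrsf21 and in 1 for Il21r, whose summits fell from 42 to 279 bp after the start. Il6st held 33 CpG in these 300 bases, Tnfrsf21 17, Ifngr1 14, Il21r 7 and Il23r 2. Promoters were found for 52 of the 63 receptor genes, and their CpG count followed how many libraries were marked. The median was 16 CpG in 19 genes marked at the 5′ end in all 7 libraries, 7 in 23 genes marked in 1 to 6, and 4.5 in 10 genes marked in none. All protein-coding genes with a promoter gave 22, 12 and 3 in the same classes. The family as a whole was poorer in CpG than genes in general, with a median of 7.5 against 13. Among the exceptions, Il21r had 7 CpG and Tnfrsf14, the receptor of the ligand LIGHT, 2, and both were marked in all 7 libraries. Marks were counted around the outer end of the gene, which can lie away from the start used for the promoter. The median position of the highest summit was −1295 bp from that start for Tnfrsf14, −1500 for Il1r2, −5125 for Il9r and −24768.5 for Il1rl1. For these genes the CpG count and the mark mostly describe different places. These are descriptions of letters and marks, with no test.

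**Figure D2:**
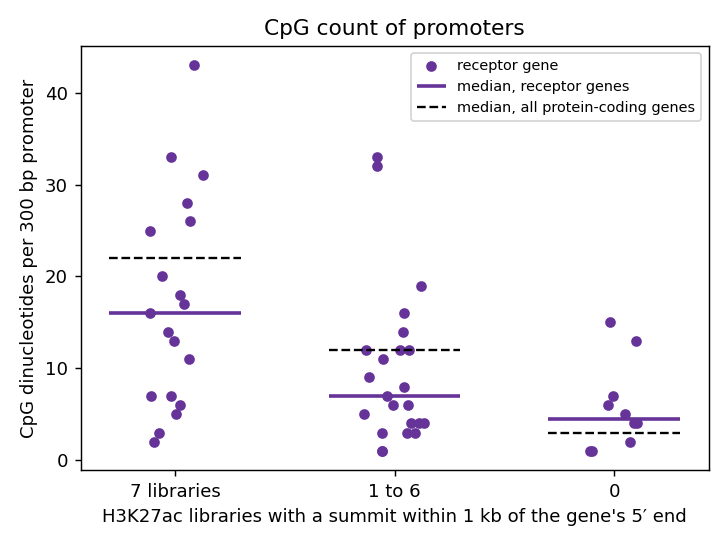
CpG dinucleotides per 300 bp promoter of the 52 receptor genes with a RefSeq promoter, by the number of H3K27ac libraries with a summit within 1 kb of the 5′ end. Points are genes, purple lines their medians (16, 7 and 4.5), and dashed lines the medians of all protein-coding genes (22, 12 and 3).

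Of the 63 receptor genes, 46 passed the filter of 3 libraries and were ranked (73.0%, against 61.7% of all genes). Their mean percentile over the 7 libraries had a median of 44.9, against 51.2 over all ranked genes, and ran between 9.79 and 97.8. By receptor class, interferon and interleukin-10 family chains had a median of 78.0 (7 ranked of 10), and TNF receptors with a death domain 72.7 (3 of 4). The interleukin-6 and interleukin-12 group had 47.5 (6 of 9), the chains that pair with the common gamma chain 44.1 (7 of 7, that chain included), TRAF-binding TNF receptors 41.2 (10 of 12) and TNF receptor decoys with Tnfrsf26 39.3 (3 of 4). Interleukin-1 family chains had 32.0 (5 of 9) and interleukin-17 chains 27.4 (4 of 5), while Il13ra1 alone was ranked of the 3 interleukin-13 and interleukin-5 chains, at 50.5. These classes were compared as a description.

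**Figure D3:**
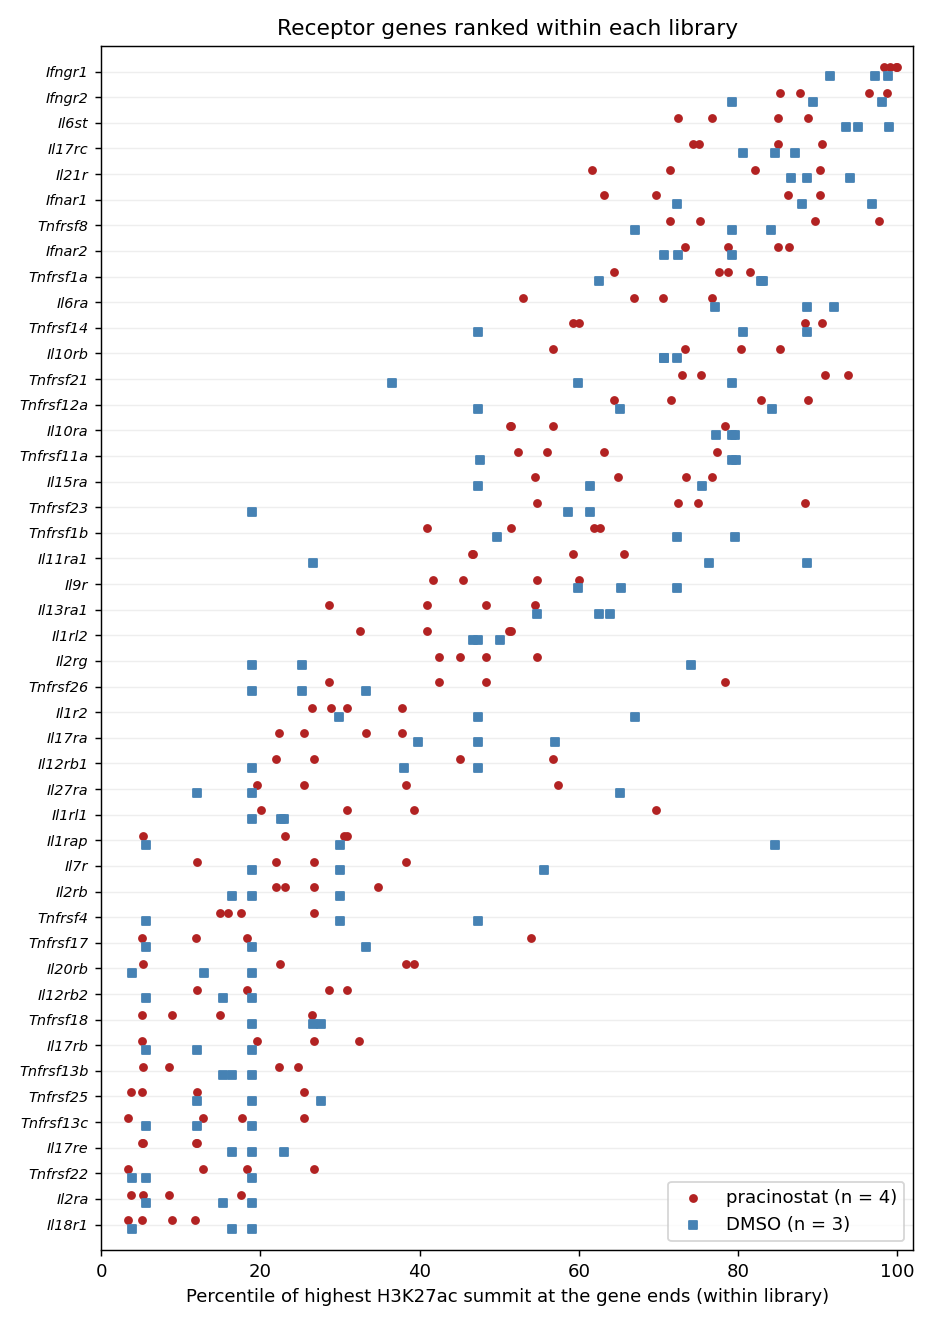
Percentile of the highest H3K27ac summit at the gene ends (x axis, 100 is the highest of the library) for the 46 ranked receptor genes, ordered by their mean. Each red circle is 1 of 4 pracinostat libraries and each blue square 1 of 3 DMSO libraries. Ifngr1 and Ifngr2 stand at the top, and the groups overlap in most genes. Squares in a column at 19.0 are genes without a summit in DMSO replicate 2.

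Among the interferon and interleukin-10 receptor chains, all 4 interferon chains were within the first 8 receptor genes by mean percentile. Ifngr2, the signalling partner of Ifngr1, had 87.7, 98.7, 85.3 and 96.5 in pracinostat libraries, against 98.1, 79.2 and 89.4 in DMSO libraries. Ifnar1, a chain of the receptor for type I interferons, had 63.1, 90.2, 69.6 and 86.2 with pracinostat, against 88.0, 72.3 and 96.8 with DMSO. Its groups overlapped, as did those of Ifngr2. Ifnar2, the other chain of that receptor, had 78.7, 73.3, 86.4 and 85.0 with pracinostat, against 70.7, 79.2 and 72.5 with DMSO. The nearest ends of Ifnar2 and Il10rb, the signalling chain of the interleukin-10 receptor, are 568 bp apart, so a summit between them counted for both. Il10rb had 80.4, 73.3, 85.3 and 56.7 with pracinostat, against 70.7, 72.3 and 70.7 with DMSO. Il10ra, the ligand-binding chain, had 51.4, 51.4, 78.3 and 56.7 with pracinostat, against 77.2, 79.2 and 79.6 with DMSO. Of these, 3 pracinostat libraries lay more than 20 points below every DMSO library and pracinostat replicate 3 did not. The difference for Il10ra was −0.54 ± 0.37 normal-score units (SE, limma adjusted p = 0.87), and it was −0.29 with windows of 2.5 kb and −0.09 over the whole gene.

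The interleukin-6 receptor chains stood high in DMSO libraries and lower in pracinostat libraries, short of the threshold. Il6st, which encodes gp130, the signalling chain shared by interleukin-6, interleukin-11 and leukaemia inhibitory factor, had percentiles of 88.7, 72.4, 76.7 and 85.0 in pracinostat libraries, against 95.0, 93.6 and 98.9 in DMSO libraries. All 4 pracinostat libraries lay below all 3 DMSO libraries. The difference was −0.92 ± 0.41 normal-score units (SE), with a limma adjusted p of 0.782 over all ranked genes and an unadjusted value of 0.0300. The unadjusted p was 0.142 without DMSO replicate 3, 0.0804 without pracinostat replicate 2 and 0.0565 without pracinostat replicate 3. Il6ra, the chain that binds interleukin-6 itself, had 70.6, 52.9, 76.7 and 66.9 with pracinostat, against 92.0, 88.7 and 77.0 with DMSO. Its groups were also apart, by less than 1 point between pracinostat replicate 3 and DMSO replicate 3 (−0.67 ± 0.39, adjusted p = 0.848). The difference for Il6ra was −0.12 with windows of 500 bp, −0.21 with windows of 2.5 kb and −0.22 over the whole gene, and in none of these were its groups apart. Beside both, the neutrophil list mean was 22.2 ± 4.67 in pracinostat libraries and 34.2 ± 7.03 in DMSO libraries. The macrophage list mean went the other way, at 74.9 ± 6.73 in pracinostat libraries and 65.4 ± 6.1 in DMSO libraries. A part of either cell type in these ranks was not tested.

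In limma over all ranked genes, 0 of the 46 receptor genes passed an adjusted p of 0.05 in either direction, where 0.0% of the 13494 genes did. At an unadjusted p under 0.05, Tnfrsf21 and Tnfrsf23 were higher (2 of 46, background 2.74%) and Il6st lower (1 of 46, background 3.42%). No receptor gene had all pracinostat libraries above all DMSO libraries (background 2.88%), and 5 had them all below (10.9%, background 3.79%), namely Il6st, Il6ra, Il17ra, Il17re and Il13ra1. In DMSO replicate 2 the value of Il17re is the tie of genes without a summit, and that of Il17ra the tie of genes at the lowest value. The median difference in percentile was −1.17 points over the receptor genes, with 22 higher and 24 lower, against −0.296 over all ranked genes, with 6594 higher and 6900 lower. Single differences ran between −19.2 and 26.3 points.

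**Figure D4:**
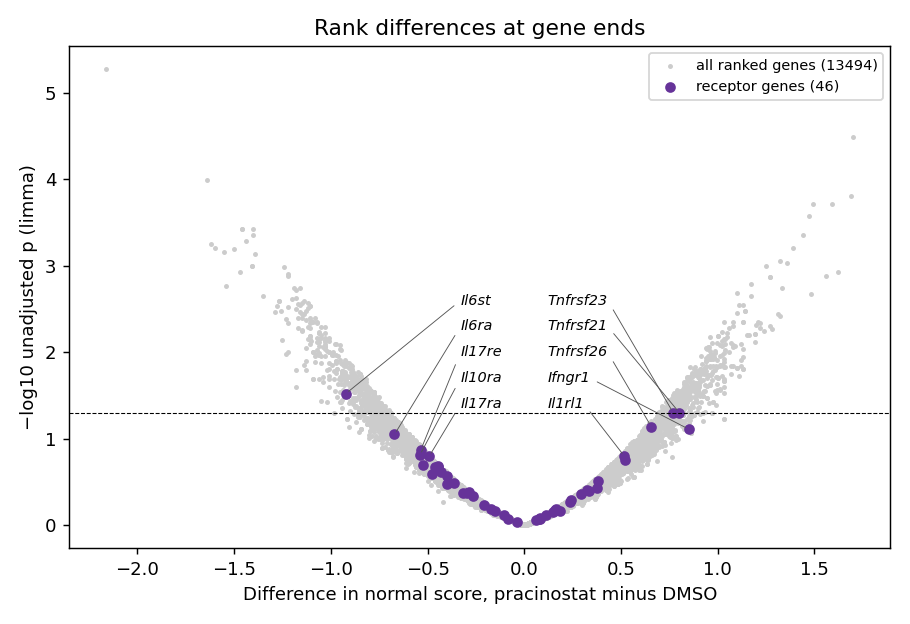
Difference in normal score of the within-library rank, pracinostat minus DMSO (x axis), against −log10 of the unadjusted limma p (y axis), for 13494 ranked genes (grey) and 46 receptor genes (purple). The dashed line marks the unadjusted threshold. Il6st on the left and Tnfrsf21 and Tnfrsf23 on the right lie at or above it, and the 5 receptor genes with the smallest p in each direction are named.

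Of the other receptor genes whose groups were apart, Il17ra, the shared chain of interleukin-17 receptors, had percentiles of 22.3, 37.8, 25.5 and 33.2 in pracinostat libraries, against 39.8, 47.3 and 56.9 in DMSO libraries (−0.49 ± 0.34 normal-score units, limma adjusted p = 0.87). Its 47.3 in DMSO replicate 2 is the tie of genes at the lowest value of that library. The direction for Il17ra turned when the whole gene was ranked (0.55 units). Il13ra1, a chain of the interleukin-13 receptor, had 54.5, 28.6, 41.0 and 48.4 with pracinostat, against 63.9, 62.6 and 54.7 with DMSO. Its closest libraries, pracinostat replicate 1 and DMSO replicate 3, were within 1 point. The difference for Il13ra1 was −0.445 ± 0.35 units (adjusted p = 0.889), −0.07 with windows of 500 bp and −0.17 over the whole gene, and its groups overlapped in both and with windows of 2.5 kb. Il17re, a receptor chain for interleukin-17C, had 5.15, 11.9, 5.23 and 12.1 with pracinostat, against 16.4, 19.0 and 22.9 with DMSO. Only 4 libraries had a summit there, so pracinostat replicates 1 and 3 and DMSO replicate 2 hold the value of unmarked genes. In DMSO replicate 2 that value, 19.0, lies above pracinostat replicates 2 and 4, which did have a summit. The direction for Il17re turned with windows of 2.5 kb (0.11 units) and over the whole gene (0.39 units). Its neighbour Il17rc, the partner of Il17ra for interleukin-17A, had 90.6, 74.3, 75.1 and 85.0 with pracinostat, against 80.6, 84.6 and 87.1 with DMSO. The Il17rc summits sat at its 3′ end in all 7 libraries (mean percentile 82.5, and 11.4 for the 5′ end alone), where an end of Creld1 lies 193 bp away, so they cannot be assigned to Il17rc by position.

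Of the 5 genes with the smallest p on the higher side 3 were TNF receptor genes, beside Ifngr1 and Il1rl1. Tnfrsf21, which encodes death receptor 6, had percentiles of 72.9, 93.8, 90.9 and 75.4 in pracinostat libraries, against 59.9, 79.2 and 36.5 in DMSO libraries. DMSO replicate 2 lay above pracinostat replicates 1 and 4, so the groups overlapped. The difference was 0.80 ± 0.40 normal-score units (SE, limma adjusted p = 0.809, 0.0495 unadjusted), 0.52 units without DMSO replicate 3 and 1.09 without DMSO replicate 2. Tnfrsf23, a decoy receptor for the death ligand TRAIL in the mouse, had 74.9, 72.4, 54.7 and 88.4 with pracinostat, against 58.6, 19.0 and 61.3 with DMSO. It had no summit in DMSO replicate 2, and its difference of 0.77 ± 0.38 units (adjusted p = 0.809) was 0.39 without that library and 0.43 with windows of 500 bp. Tnfrsf26, which lies in the same cluster on chromosome 7, had 48.3, 28.6, 78.3 and 42.4 with pracinostat, against 25.2, 19.0 and 33.3 with DMSO. Its difference of 0.66 ± 0.36 units turned to −0.08 with windows of 500 bp. All 3 ranked decoys and other members of that class, Tnfrsf22 included, were higher in the mean with pracinostat, with a median of 23.6 points, but DMSO replicate 2 held no summit at any of the 3. Without it the median was 12.6 points. Tnfrsf22 had no summit in any DMSO library, and its own difference was 5.83 points with DMSO replicate 2 and 10.6 without it.

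The groups overlapped for Tnfrsf1a, Tnfrsf1b, Tnfrsf8, Tnfrsf11a and Tnfrsf13b. Tnfrsf1a, the death domain receptor of TNF, had percentiles of 78.7, 77.6, 81.4 and 64.4 in pracinostat libraries, against 82.9, 62.6 and 83.1 in DMSO libraries. Tnfrsf1b, the TRAF-binding receptor of TNF, had 51.4, 62.6, 41.0 and 61.9 with pracinostat, against 49.7, 72.3 and 79.6 with DMSO. The groups overlapped for both, with DMSO replicate 2 the lowest library for Tnfrsf1a and pracinostat replicate 3 the lowest for Tnfrsf1b. An end of Plekhg6 lies 168 bp from Tnfrsf1a. Tnfrsf8, which encodes CD30, had 89.6, 75.2, 71.4 and 97.7 with pracinostat, against 84.1, 79.2 and 67.1 with DMSO, and its highest summit was at the 3′ end in all 7 libraries, 47063 to 47587 bp from the start. Its mean percentile over the 7 libraries was 80.6, and 43.5 with windows of 500 bp. Tnfrsf11a, which encodes RANK, the receptor that drives osteoclast formation, had 63.1, 56.0, 52.3 and 77.3 with pracinostat, against 79.7, 79.2 and 47.5 with DMSO. Tnfrsf13b, the receptor TACI best known from B cells, had 22.3, 24.7, 5.23 and 8.52 with pracinostat, against 16.4, 19.0 and 15.3 with DMSO.

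Most genes of the interleukin-1 family and the common gamma chain group ranked low or in the middle, and Il21r ranked high. Il1r2, the decoy receptor of interleukin-1, had percentiles of 30.8, 37.8, 28.9 and 26.5 in pracinostat libraries, against 29.9, 47.3 and 67.1 in DMSO libraries. Il1rap, the accessory chain of several interleukin-1 family receptors, had 30.8, 30.5, 5.23 and 23.0 with pracinostat, against 5.61, 84.6 and 30.0 with DMSO, where replicate 2 alone was high. Il1rl1, the receptor of interleukin-33, had 30.8, 20.1, 69.6 and 39.3 with pracinostat, against 22.6, 19.0 and 22.9 with DMSO. The difference was 0.52 ± 0.36 normal-score units (limma adjusted p = 0.87) and 0.25 without pracinostat replicate 3. An end of Il18r1 lies 134 bp from the 3′ end of Il1rl1, whose highest summit was at the 5′ end in all 6 libraries with a summit. Il21r, the interleukin-21 receptor, had 82.1, 90.2, 61.7 and 71.4 with pracinostat, against 86.6, 88.7 and 94.1 with DMSO, and overlapped through pracinostat replicate 2. Il2rg, the common gamma chain that the strain carries as a null allele, had 45.0, 48.3, 54.7 and 42.4 with pracinostat, against 25.2, 19.0 and 74.1 with DMSO. Its ends were marked in 6 libraries, DMSO replicate 2 being the exception, and an end of Gm614 lies 393 bp away.

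The highest H3K27ac summit of several receptor genes lay inside the gene and not at its ends. Of 38 ranked receptor genes with a known strand, 22 had their highest end summit at the 5′ end in every library where they were marked, 4 at the 3′ end (Tnfrsf8, Tnfrsf4, Il17rc and Il20rb) and 12 at either end by library. In 38 receptor genes all 7 libraries had a summit at an end or further inside, so that both places could be compared, a place without a summit counting as 0. The inside summit was the higher in every library for 9 of them (23.7%, against 17.6% of all genes) and in none for 7 (18.4%, against 34.1%). The 9, chosen by that pattern, were Il1r1, Il2ra, Il22ra1, Tnfrsf1b, Il17ra, Il20ra, Tnfrsf13b, Tnfrsf17 and Ifnar2. The inside stretch grows with the length of the gene, while the windows at the ends are fixed. For Il20ra the inside value was the lowest of the list in pracinostat replicates 1, 3 and 4 and in DMSO replicate 2. No receptor gene had the higher internal summit in all pracinostat and no DMSO libraries (background 0.178%) or the reverse (background 0.231%).

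Il1r1 (chr1:40222480-40316201) was the clearest case. It had no summit at either end in any library, yet ranked over the whole gene and 1 kb around it, its percentiles were 58.9, 41.5, 89.4 and 60.3 in pracinostat libraries, against 74.0, 39.0 and 60.0 in DMSO libraries. The highest summit lay between positions 40294722 and 40295963 in 5 libraries, far inside the gene. Pracinostat replicate 2 had its highest at 40230402, and DMSO replicate 2 had only its lowest value, 1.43, at 40265233. Il17ra had a mean whole-gene percentile of 82.0 over the 7 libraries, against 37.6 for its ends, Tnfrsf1b 88.8 against 59.8, Ifnar2 96.0 against 78.0, Tnfrsf13b 55.5 against 15.9 and Tnfrsf17 53.0 against 21.0. In Ifnar2 the whole-gene summit fell between 91398206 and 91398344 on chromosome 16 in all 7 libraries. Its whole-gene percentiles were 99.3, 98.6, 99.3 and 98.0 with pracinostat, against 96.4, 83.4 and 97.2 with DMSO, and the groups did not overlap (0.72 ± 0.40 normal-score units, limma adjusted p = 0.843).

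Il10ra (chr9:45253837-45269149), chosen after its values were seen, held its highest summit at different places in most libraries of the groups. It lay between 45266265 and 45266813, toward the higher-numbered end of the gene, in all 4 pracinostat libraries, and at 45254803 and 45255016, near the lower-numbered end, in DMSO replicates 1 and 3. In DMSO replicate 2 the highest value, 8.37, was tied between 45254606 and 45268612, near both ends, so its highest summit does not tell the ends apart. The second of these positions lies outside the range of the pracinostat libraries. With 300 bp around the upper range, and around 45254606 to 45255016 as the lower site, the −log10 value of the upper site was 37.1, 67.2, 51.0 and 43.3 in pracinostat libraries, against 18.4, none and 41.6 in DMSO libraries. At the lower site it was 18.5, 29.6, 15.1 and 37.5 with pracinostat, against 76.6, 8.37 and 57.8 with DMSO. The values of a site cannot be compared between libraries, so only the order of the sites within a library is read. The upper over the lower value was 2.0, 2.27, 3.38 and 1.16 with pracinostat, against 0.24 and 0.721 in DMSO replicates 1 and 3. Pracinostat replicate 4 was close to equal, and DMSO replicate 2 had no summit in the upper range. The sites were found by this pattern, so it was not tested.

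**Figure D5:**
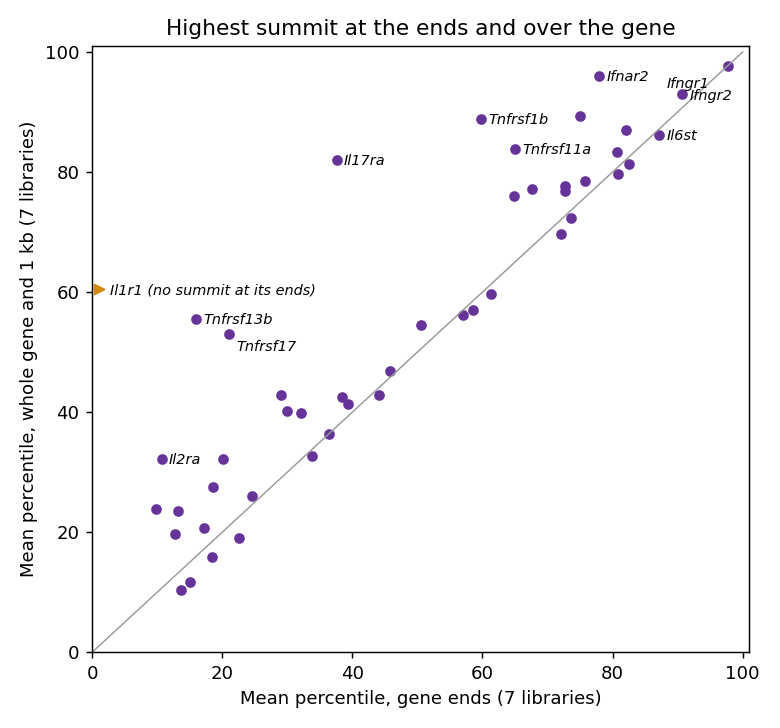
Mean percentile over 7 libraries of the highest summit at the gene ends (x axis) and over the whole gene with 1 kb around it (y axis) for the ranked receptor genes. Points far above the diagonal, such as Il17ra (82.0 against 37.6) and Tnfrsf1b (88.8 against 59.8), had their highest summit inside the gene; the triangle marks Il1r1, which had no summit at its ends.

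Over whole genes, 60 receptor genes were ranked. In limma 0 of them passed an adjusted p of 0.05, where 0.0% of 16751 genes did, and at an unadjusted p under 0.05 Tnfrsf23 was higher (background 2.96%) and Il6st lower (background 3.18%). All pracinostat libraries lay above all DMSO libraries for Il12rb2, Il17ra and Ifnar2 (background 3.05%) and below for Il6st, Il9r, Il20ra and Tnfrsf13b (background 3.48%). Il6st was thus the one of the 5 genes apart at their ends that was apart in the same direction over the gene as well. Il12rb2 had no summit in DMSO replicate 2, where such whole genes tied at 13.8. Il20ra was at the lowest value of that library, a tie at 39.0. In pracinostat replicates 1, 3 and 4, Il20ra was also at the lowest value, at 8.65, 6.22 and 6.13. An end of Snrnp25 lies 132 bp from an end of Il9r, so a summit between them counted for both. Of the receptor genes, Il21r had the most summits in all, with 59, 72, 51 and 64 over the gene and 10 kb around it in pracinostat libraries, against 55, 20 and 51 in DMSO libraries. Around Tnfrsf1b there were 62, 60, 46 and 59 with pracinostat, against 55, 19 and 53 with DMSO, and the low count in both was DMSO replicate 2, the library with the shortest list. Relative to the length of its list, DMSO replicate 2 had the most summits of the 7 libraries at both genes.

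In limma, 0 genes of the lists of receptor partners passed an adjusted p of 0.05. Among ligands, 15 of 25 interleukin and interferon genes and 14 of 18 TNF ligand genes were ranked, with median mean percentiles of 27.2 and 39.6. At an unadjusted p under 0.05, where 2.74% of all ranked genes were higher and 3.42% lower, there was 1 of these 29, Tnfsf18, the ligand of Tnfrsf18, at 27.5 ± 9.18 in pracinostat libraries (SD, n = 4) and 9.47 ± 8.28 in DMSO libraries (n = 3). Signalling genes had higher median ranks than the receptors, a description without a test. JAK, STAT and SOCS genes had a median of 65.4 (21 ranked of 22, 0 at p under 0.05) and TRAF, death domain and MyD88 adaptor genes 67.9 (29 of 29, 1 higher and 1 lower). In the adaptor list, Fadd, the death domain adaptor of caspase-8, had 89.3 ± 12.5 with pracinostat and 68.1 ± 14.7 with DMSO, and Map3k7, the kinase TAK1, 60.6 ± 11 with pracinostat and 82.2 ± 25.7 with DMSO. TNF receptors under other symbols, Cd40 and Fas among them, had 6 ranked of 8 and 0 at p under 0.05. Of 15 cytokine receptors under other symbols 9 were ranked, and the GM-CSF receptor genes Csf2ra and Csf2rb were lower at an unadjusted p under 0.05, 2 of 9 against 3.42% of all ranked genes. Csf2ra had 61.6 ± 16.1 with pracinostat and 83.9 ± 15.3 with DMSO, and Csf2rb 41.7 ± 7.37 with pracinostat and 68.4 ± 20.0 with DMSO. Their limma adjusted p was 0.798 for Csf2ra and 0.809 for Csf2rb. Csf2rb has a close copy, Csf2rb2, between which reads may be split, and Csf2rb2 had 68.6 ± 15.6 with pracinostat and 55.3 ± 8.31 with DMSO (adjusted p = 0.921).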

How the data were processed

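H3K27ac and IgG CUT&Tag libraries were compared through 1 deposited summit list each. Its last deposited column is a −log10 significance per summit, and the labels do not say if p or q was meant. The submitters' processing notes name mm10 and the tools HOMER, DESeq2, Bowtie2 and MACS2 2.2.9.1 without their roles, thresholds or the use of IgG. Read depth is unknown, and the value grows with it, so it was only ranked within a library.

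Genes came from a RefSeq table of GRCm38.p6, with strand from a promoter table for 79.9% of genes. Ranks were turned into normal scores (1 unit is 1 SD of all ranked genes) and compared with limma 3.58.1 (trended, robust; R 4.3.3, statmod 1.5.0). P-values were adjusted by Benjamini-Hochberg over all 13494 ranked genes, and the step was tested on simulated data. The simulated shifts were far larger than any receptor difference reported here, so that test does not show whether smaller ones would be found. Ranks cannot show a change common to all sites. The labels call the libraries biological replicates without naming animals, and p-values reflect only how these libraries vary. Members and lists were chosen with earlier results of these data known. Named were the 10 highest, the 5 smallest p per direction, genes whose groups were apart, genes without a summit, a fixed set of macrophage receptors, and per list the genes with the smallest p. Alternatives covered window, list length, score, gene filter, covariates, weights, scale and each library left out.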

Additional observations from a re-analysis of the deposited data

How the results depend on the processing

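No receptor gene passed an adjusted p of 0.05 in limma under any of the 19 alternatives, nor with Il1rn added. Over all genes the count of 0 was 2 with windows of 500 bp or with genes marked in at least 1 library, 1 with the 30000 highest summits, with values of at least 5 or with genes marked in all 7, and 0 to 4 with a library left out, 4 being without DMSO replicate 3. The 3 receptor genes at an unadjusted p under 0.05 were 5 with windows of 2.5 kb, 1 with the 5′ end alone or with values of at least 5, and 1 to 3 with a library left out (1 without pracinostat replicate 2). The 5 genes lower in all pracinostat libraries were 2 with the 5′ end alone, 3 with 30000 summits and 5 to 10 with a library left out (10 without DMSO replicate 1, 8 without DMSO replicate 3, where 8.51 and 8.55% of all ranked genes were lower in all, against 3.79% with every library). The 0 genes higher in all were 4 with windows of 2.5 kb and 3 over whole genes (5.0%, against 3.05% of all genes ranked there). With a library left out they were 0 to 3 (3 without pracinostat replicate 2 or DMSO replicate 3, where 4.56 and 7.05% of all ranked genes were). Counts printed here without such a share beside them show only how the count moves, and are not a result about the receptors. The median difference of −1.17 points was −4.75 with the 5′ end alone and −3.82 (without pracinostat replicate 4) to −0.959 with a library left out. The difference in the share of marked receptor genes, 11.4 points, was −2.12 with 30000 summits, 3.17 without DMSO replicate 2, and 3.17 to 18.3 over all libraries left out. Reversals were −0.0762 units for Tnfrsf26 (500 bp), 0.11 and 0.39 for Il17re (2.5 kb and whole gene) and 0.55 for Il17ra (whole gene). The cause of these shifts was not tested. Rank differences were recomputed for 11 named genes, and the other 192 kept their direction. Of the mean percentiles of other named genes, 26 moved by more than the SD over libraries and 175 did not. Il6st kept it in 19 of 19 alternatives and had an unadjusted p under 0.05 in 16, with adjusted p of 0.699 to 0.973. With the replicate number as a block, 2 receptor genes (Il6st and Tnfrsf21) had an unadjusted p under 0.05. The labels do not say that numbers pair libraries, and same-numbered libraries deviated together with r of −0.0544, 0.000524 and −0.0235. Read depth is unknown, and what it limits was not examined.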

Other observations

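The letters TTCNNNGAA, the core that STAT factors bind, were searched in the promoters, where the reverse strand reads the same. They were in 10 of 52 receptor promoters (19.2%), against 7.78% of 17492. The 10 were Il1r2, Tnfrsf1b, Tnfrsf18, Il12rb2, Tnfrsf1a, Il31ra, Tnfrsf19, Il7r, Ifnar1 and Ifnar2. Searched on both strands, GGGCGG, a GC box, was in 51.9 and 46.3%, CGGAAG, an ETS core, in 21.2 and 21.5%, GAGGAAG, a PU.1 core, in 9.62 and 13.5%, and TGANTCA, an AP-1 site, in 11.5 and 7.03% of receptor and of all promoters. CGGAAG and GAGGAAG share letters and can overlap. No test was made, and a match is not a bound site.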
